A study of Mus musculus with 6 samples.

Results

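Interferon-stimulated genes are switched on by interferons and were followed here as a set of 34 genes in the colon of Hnf4α mutant mice. The set holds transcription factors of the pathway, the ISG15 system, sensors and effectors that act on viral RNA, and GTPases that attack intracellular pathogens. A gene was measured by the probe set that carried its symbol and no other, and the probe set with the highest mean over the 6 arrays was taken where a gene had several. On this basis 32 of the 34 genes were measured, of 18193 genes in all. Isg15 had no probe set of its own, because the only one that named it also named a second gene, and Ifi44 had no probe set in the annotation used. The set was defined by gene name, by a rule that used no measured value, although earlier results of these arrays were known when it was drawn up.

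Type I and type III interferons signal through receptors that activate the Janus kinases, and these phosphorylate Stat2. Stat2 and Irf9 belong to a complex that binds the interferon-stimulated response element (ISRE) of its targets, whereas interferon-gamma acts through the gamma-activated site (GAS). In the gut both the epithelium and immune cells respond, and a low level of the response is kept up at rest.

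RNA from the proximal colon of 3 Hnf4α mutant and 3 control mice, all 1 year old and kept free of pathogens, was hybridised to Affymetrix arrays, 1 mouse per array. The mutants carried loxP-flanked Hnf4α alleles and Cre recombinase under the Villin promoter, which is active in the intestinal epithelium, and the controls were labelled wildtype. The authors summarised the arrays by RMA, so each value is a log2 signal. Hnf4a itself was at 10.17, 10.09 and 10.15 in mutant replicates 1, 2 and 3, against 12.23, 12.01 and 11.97 in control replicates 1, 2 and 3, and it fell by all 4 of its probe sets.

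By the labels mutant replicates 2 and 3 were male, and mutant replicate 1 and the 3 controls were female. Xist, expressed from the inactive X chromosome of females, was between 5.03 and 5.32 in the mutants, mutant replicate 1 included, against 9.94 to 10.96 in the controls. The Y-linked Eif2s3y and Kdm5d were at 8.08 and 7.69 in mutant replicate 1 and between 7.40 and 8.12 in the other mutants. In the controls they were between 2.75 and 3.16. By these genes all 3 mutants were male and all 3 controls female, against the label of mutant replicate 1. Sex and genotype therefore cannot be told apart in any comparison below. The RNA came from whole tissue, in which fewer cells of a type and less RNA per cell cannot be told apart. Mutant replicate 2 had the lowest signal of the 6 arrays for 10 of 10 smooth muscle, 10 of 10 fibroblast and 6 of 6 endothelial markers. The smooth muscle markers summed to 31212, 2242 and 27968 on the linear scale in mutant replicates 1, 2 and 3, against 35389 to 38708 in the controls. The 12 gut epithelium markers, which define the labelled tissue, summed to 89411 to 98270 in the mutants and to 82495 to 90857 in the controls.

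No interferon-stimulated gene passed the test between the genotypes. Of the 32 genes, 0 were called by limma at an adjusted p under 0.05 in either direction, against 0.879% of all genes, and the smallest adjusted p was 0.200, for Usp18. At an unadjusted p under 0.05, limma gave 3 genes with a higher signal in the mutants (Usp18, Eif2ak2 and Oas2) and 1 with a lower signal (Irf1), together 4 of 32, where 16.2% of all genes passed (1822 of the 18193 higher and 1124 lower). The median log2 fold change of the set, mutant minus control, was 0.00, beside 0.05 over all genes. It was positive for 17 genes and negative for 15, while 60.4% of all genes had a positive value. For 29 of the 32 the log2 fold change lay between -0.5 and 0.5, and the other 3 were Usp18 (1.47), Iigp1 (-0.70) and Dhx58 (0.52). The intervals leave room for larger changes, since the standard error of a single gene went up to 0.77.

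**Figure D1:**
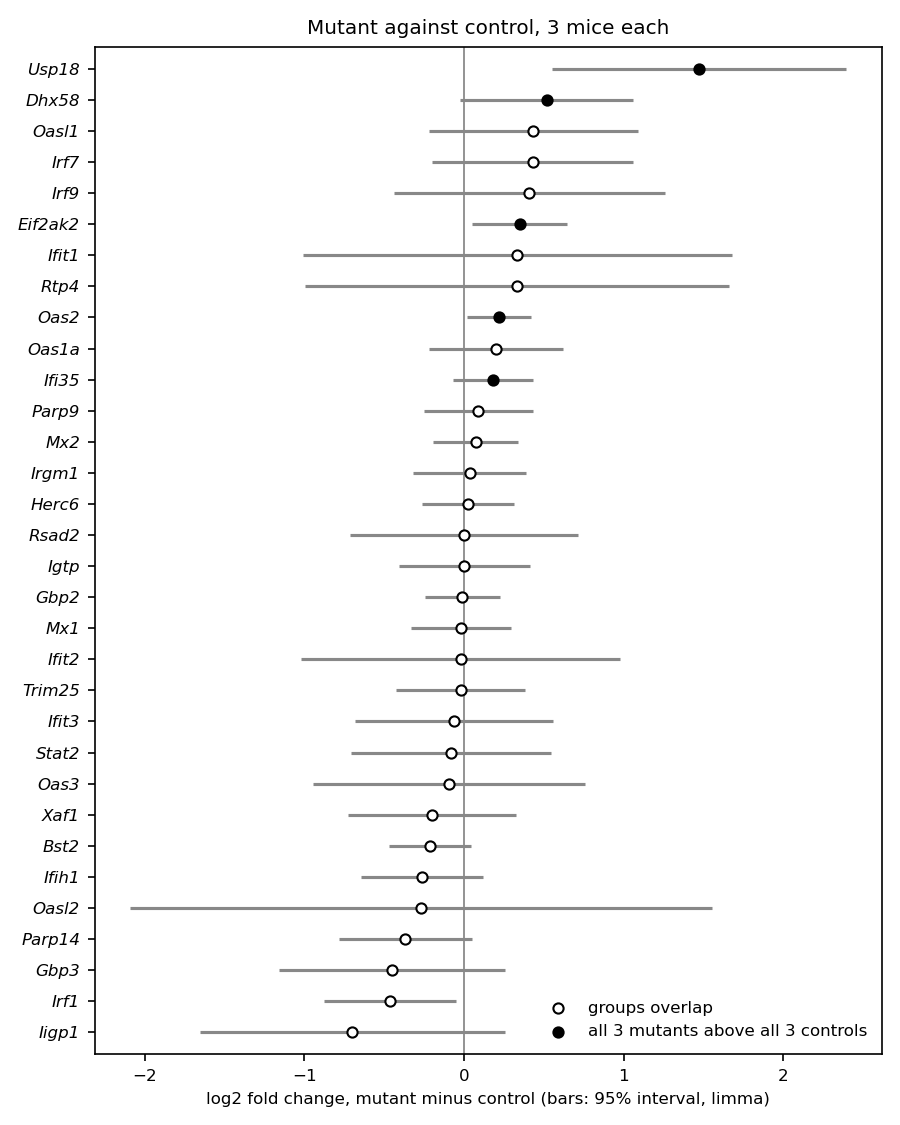
Log2 fold change of each of the 32 interferon-stimulated genes, mutant minus control (horizontal axis, with 95% intervals from limma), with filled points where all 3 mutants lay above all 3 controls. The estimates centre on 0.00 and Usp18 stands apart at 1.47.

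Of the 32 genes, 5 had all 3 mutants above all 3 controls and 0 had all 3 below, against 14.5% and 8.86% of all genes. The 5 were Usp18, Dhx58, Eif2ak2, Oas2 and Ifi35. Which genes separated depended on single animals. Without control replicate 2 the same 5 genes were higher in every mutant, but 9 genes were lower in every mutant (Irf1, Stat2, Ifih1, Oasl2, Mx1, Bst2, Xaf1, Iigp1 and Parp14), against 29.7% higher and 15.7% lower over all genes. Of these 9, Mx1 was dim, at 4.09 to 4.53 over the 6 arrays. Dimmer probe sets of Stat2 and Xaf1 had log2 fold changes of 0.15 and 0.17 over all arrays, and those of Iigp1 and Parp14 had -0.25 and -0.42. Without mutant replicate 1 the counts were 6 higher and 3 lower, against 22.6% and 13.7% of all genes.

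**Figure D2:**
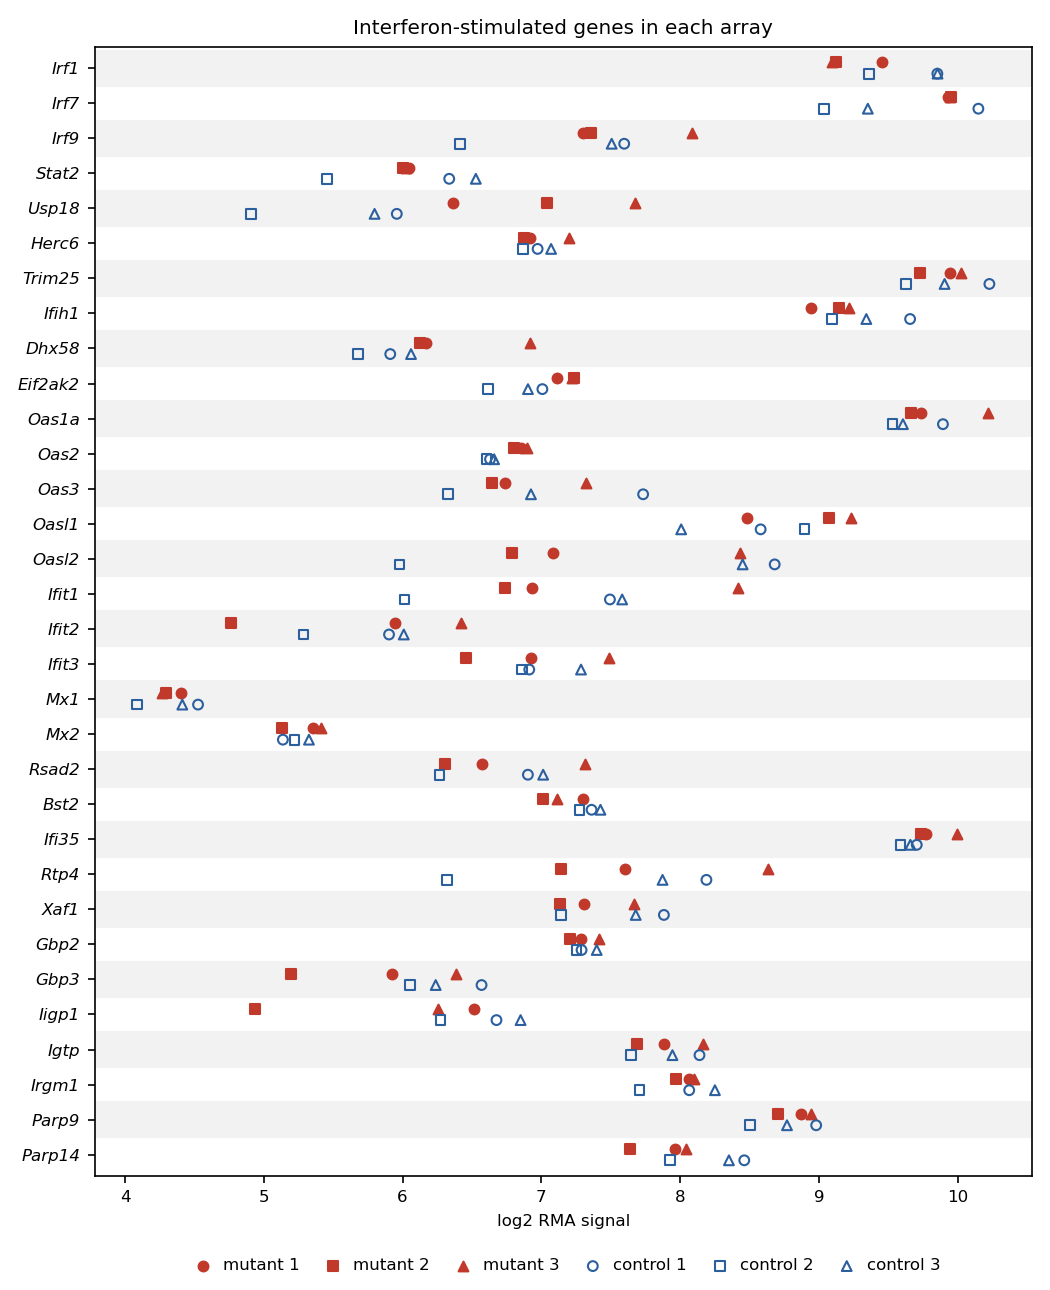
Log2 RMA signal (horizontal axis) of the 32 interferon-stimulated genes in each array, with mutants filled and above, and controls open and below, in each row. Control replicate 2 (open squares) is the lowest control for 30 genes and mutant replicate 3 (filled triangles) the highest mutant for 25.

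Promoter sequence was read for the genes with an entry in the table of RefSeq promoters used here, over 300 bases from 250 before to 50 after the start (build GRCm38.p6). Of the 34 genes 25 were matched to it. Dhx58, Iigp1, Mx1, Mx2, Oas2, Parp14, Parp9, Rtp4 and Usp18 were not, and their promoters were not analysed here. The ISRE core was searched as GAAA, a pair of any bases and GAAA again, and the GAS as TTCNNNGAA, on both strands and with overlapping matches counted. An ISRE core was found for 14 of the 25 genes (56.0%), against 3.99% of all genes with a promoter entry, and a GAS for 7 of the 25 (28.0%), against 9.55%. A match describes the letters of the window and does not show that a factor binds there. The 4 promoters printed here show the kinds of element in the set, with capitals for the matches. Ifit1 has an ISRE pair and was among the genes that differed most between single animals (chr19:34640639-34640938, plus strand).
Ifit1: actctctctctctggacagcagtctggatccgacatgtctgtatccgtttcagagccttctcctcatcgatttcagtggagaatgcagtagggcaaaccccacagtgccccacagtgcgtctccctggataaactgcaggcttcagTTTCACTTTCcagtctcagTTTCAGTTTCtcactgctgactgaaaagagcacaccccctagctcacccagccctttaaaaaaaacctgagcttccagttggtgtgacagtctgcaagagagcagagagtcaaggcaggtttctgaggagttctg
Oas1a has 2 ISRE matches that overlap near its start, and a GAS upstream of them (chr5:120907476-120907775, minus strand).
Oas1a: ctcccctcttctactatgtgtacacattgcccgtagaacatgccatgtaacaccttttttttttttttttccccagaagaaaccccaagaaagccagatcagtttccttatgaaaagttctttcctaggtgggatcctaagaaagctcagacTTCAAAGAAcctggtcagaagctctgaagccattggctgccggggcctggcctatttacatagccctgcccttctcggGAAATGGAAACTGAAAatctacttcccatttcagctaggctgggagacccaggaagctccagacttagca
Eif2ak2, higher in every mutant, has 1 ISRE match close to its start and 1 GAS (chr17:78882523-78882822, minus strand).
Eif2ak2: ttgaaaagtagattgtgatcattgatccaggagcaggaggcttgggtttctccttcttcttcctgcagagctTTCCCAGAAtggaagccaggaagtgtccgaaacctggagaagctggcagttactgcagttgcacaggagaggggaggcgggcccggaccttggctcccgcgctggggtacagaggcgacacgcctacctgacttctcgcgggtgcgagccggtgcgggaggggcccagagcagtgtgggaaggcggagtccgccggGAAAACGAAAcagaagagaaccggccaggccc
Irf1, lower on average in the mutants, has 1 GAS and no ISRE match (chr11:53769764-53770063, plus strand).
Irf1: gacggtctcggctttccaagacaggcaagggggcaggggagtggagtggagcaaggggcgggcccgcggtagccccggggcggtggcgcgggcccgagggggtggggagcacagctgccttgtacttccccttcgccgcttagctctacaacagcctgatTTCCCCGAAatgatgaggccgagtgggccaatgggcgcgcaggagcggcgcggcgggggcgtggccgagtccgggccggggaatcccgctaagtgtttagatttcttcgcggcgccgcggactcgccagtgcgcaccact

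Among the transcription factors, Irf1 leant downward and Irf7 and Irf9 upward in the mutants, and none passed the test. Irf1, which is induced by interferon-gamma, was at 9.46, 9.13 and 9.09 in mutant replicates 1, 2 and 3, against 9.85, 9.36 and 9.86 in control replicates 1, 2 and 3. Only mutant replicate 1 reached into the control range, above control replicate 2, and the log2 fold change was -0.46 (standard error 0.17, limma adjusted p = 0.340). Irf7, the factor that amplifies type I interferon production, was nearly the same in the mutants, at 9.93, 9.95 and 9.95, while the controls were spread over 10.15, 9.04 and 9.35. The controls thus enclosed the mutants, and the log2 fold change was 0.43 (standard error 0.27, limma adjusted p = 0.518), with 0.19 without control replicate 2 and 0.75 without control replicate 1. Irf9, a DNA-binding part of the complex on the ISRE, was at 7.30, 7.36 and 8.09 in the mutants, against 7.60, 6.41 and 7.51 in the controls. Mutant replicate 3 was the highest of the 6 animals for Irf9 and control replicate 2 the lowest, and the log2 fold change of 0.41 had a standard error of 0.36. It was 0.03 without control replicate 2, 0.16 without mutant replicate 3 and 0.62 without control replicate 1. Stat2, which carries the activating domain of that complex, averaged 6.02 ± 0.02 in the mutants and 6.11 ± 0.57 in the controls (SD, n = 3 each).

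Usp18 had the largest difference of the set. It encodes the protease that removes ISG15 from proteins and that also restrains signalling at the type I receptor. Its log2 signal was 6.37, 7.04 and 7.67 in mutant replicates 1, 2 and 3, against 5.96, 4.91 and 5.80 in control replicates 1, 2 and 3. Every mutant lay above every control, but mutant replicate 1 came close to control replicates 1 and 3, and the spread within each group was wide (7.03 ± 0.65 in the mutants and 5.56 ± 0.56 in the controls, SD, n = 3 each). The mean signal was 2.77-fold higher in the mutants (log2 fold change 1.47, 95% interval 0.55 to 2.39, limma adjusted p = 0.200). Leaving out 1 array at a time kept the log2 fold change between 1.15 and 1.80. The other measured genes of the ISG15 system had estimates near 0. Herc6, the ligase that attaches ISG15 in the mouse, had a log2 fold change of 0.03, and Trim25, a ligase that promotes RIG-I signalling, had -0.02. The probe sets of Trim25 disagreed, since a dimmer one was at 8.09, 8.78 and 8.89 in the mutants and at 7.97, 7.78 and 7.59 in the controls (log2 fold change 0.80, limma adjusted p = 0.225).

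Of the 8 genes that act on viral RNA, 3 were higher in every mutant, where 14.5% of all genes were. Dhx58, which encodes LGP2, a regulator of the RIG-I and MDA5 sensors, was at 6.17, 6.13 and 6.92 in the mutants, against 5.91, 5.68 and 6.06 in the controls. All 3 of its probe sets had every mutant above every control, but the others were dim. In the dimmest, mutant replicate 3, at 4.242, barely passed control replicate 2, at 4.235. The log2 fold change by the brightest was 0.52 (standard error 0.23, limma adjusted p = 0.401), and 0.26 without mutant replicate 3. Eif2ak2, which encodes PKR, the kinase that stops translation on double-stranded RNA, was at 7.11, 7.24 and 7.22 in the mutants, against 7.01, 6.62 and 6.90 in the controls. Its other probe sets overlapped between the groups, with log2 fold changes of -0.06 and 0.01, so the difference of 0.35 rested on 1 probe set of 3. Oas2, an oligoadenylate synthetase that activates RNase L, was at 6.85, 6.80 and 6.90 in the mutants, against 6.63, 6.60 and 6.66 in the controls. This was a small difference (log2 fold change 0.22, limma adjusted p = 0.352) with a tight spread in both groups.

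The remaining genes of this class did not separate the groups. Oasl1, which in the mouse limits translation of Irf7, was at 8.48, 9.07 and 9.23 in the mutants, against 8.58, 8.90 and 8.01 in the controls. Its log2 fold change of 0.43 became 0.66 when mutant replicate 1 was left out, 0.28 when mutant replicate 3 was, and 0.19 when control replicate 3 was. It was the only gene of the set for which control replicate 2 lay above the mean of the other controls. Oas1a and Oas3, both oligoadenylate synthetases, had log2 fold changes of 0.20 and -0.09. Ifih1, the sensor MDA5, had a log2 fold change of -0.26, and its groups overlapped. Oasl2, named after its values were seen, had the widest standard error of the set, with 7.08, 6.79 and 8.44 in the mutants, against 8.68, 5.98 and 8.45 in the controls. The distance between control replicates 1 and 2 was larger for Oasl2 than the difference between the group means of any gene in the set, and its log2 fold change was -0.27 with a 95% interval of -2.09 to 1.56.

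The IFIT genes, which bind viral RNA ends or block translation, differed more between animals than between the genotype means. Ifit1 was at 6.93, 6.74 and 8.42 in mutant replicates 1, 2 and 3, against 7.49, 6.01 and 7.58 in control replicates 1, 2 and 3. Mutant replicate 3 was the highest animal and control replicate 2 the lowest, and the other 2 mutants lay below the other 2 controls. Its log2 fold change of 0.33 (standard error 0.57, limma adjusted p = 0.823) turned to -0.19 without mutant replicate 3 and to -0.17 without control replicate 2. Ifit2 and Ifit3 had log2 fold changes of -0.02 and -0.06. In both, mutant replicate 3 was the highest of the 6 animals and mutant replicate 2 the lowest.

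The other antiviral effectors mostly differed less between animals, with a median range over the 6 arrays of 0.44. It was 1.66 in the IFIT genes and 0.48 over all genes. Rtp4, a chaperone of receptors that is induced by interferon, was at 7.60, 7.15 and 8.64 in the mutants, against 8.19, 6.32 and 7.87 in the controls. Its log2 fold change of 0.33 (standard error 0.56) became -0.09 without mutant replicate 3 and -0.24 without control replicate 2. Ifi35 was higher in every mutant, at 9.77, 9.73 and 9.99, against 9.71, 9.59 and 9.66 in the controls, but by little (log2 fold change 0.18, limma adjusted p = 0.496, and 0.10 without mutant replicate 3). Another probe set of Ifi35 separated the groups in the same direction, and the dimmest did not. Rsad2, which encodes viperin, an inhibitor of viral replication, had a log2 fold change of 0.00 while its range over the 6 arrays was 1.04. Its dimmer probe sets had 0.26 and 0.33, with overlapping groups. Mx1 and Mx2, GTPases that block viral nucleocapsids, had -0.02 and 0.07, Bst2, the tether of budding virions, had -0.21, and Xaf1, a factor in cell death, had -0.20.

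Interferon-inducible GTPases, which respond mainly to interferon-gamma, included the gene with the lowest fold change of the set. Iigp1, an immunity-related GTPase that attacks the vacuoles of parasites, was at 6.51, 4.93 and 6.26 in mutant replicates 1, 2 and 3, against 6.68, 6.27 and 6.85 in control replicates 1, 2 and 3. Mutant replicate 2 lay far below every other animal, and the log2 fold change of -0.70 had a standard error of 0.40 (limma adjusted p = 0.492) and was -0.21 without that animal. Gbp3, a guanylate-binding protein, was likewise lowest in mutant replicate 2, at 5.20, with 5.93 and 6.38 in mutant replicates 1 and 3, against 6.57, 6.05 and 6.24 in the controls. Its log2 fold change of -0.45 was -0.13 without mutant replicate 2 and -0.73 without mutant replicate 3. Gbp2, Igtp and Irgm1 had log2 fold changes of -0.01, 0.00 and 0.04. Mutant replicate 2 was also the array with the low smooth muscle, fibroblast and endothelial markers given above, and macrophage markers were lowest in it for 7 of 9 genes. The macrophage markers Cd68 and Cd14 went the other way, with every mutant above every control (log2 fold changes 1.28 and 0.56). The part of these cell types in the low Iigp1 and Gbp3 signals was not tested. Parp14, an ADP-ribosyltransferase, was at 7.96, 7.64 and 8.04 in the mutants, against 8.46, 7.93 and 8.35 in the controls (log2 fold change -0.37, limma adjusted p = 0.429), and Parp9, of the same family, had a log2 fold change of 0.09.

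What most genes of the set shared was the order of single animals, or of their arrays, inside each group. With 1 mouse per array, animals and arrays cannot be told apart. The differences were small for some genes. Gbp2, Mx2 and Oas2 had ranges over the 6 arrays of 0.20, 0.28 and 0.29, beside a median of 0.48 over all genes. The array weight of limma is lower for arrays that lie farther from their group. It was lowest in control replicate 2 (0.456), next lowest in mutant replicate 2 (0.621) and highest in mutant replicate 3 (1.80). Control replicate 2 was the lowest of the controls for 30 of the 32 genes, against 27.6% of all genes, and the lowest of all 6 animals for 20, against 14.1%. Mutant replicate 3 was the highest of the mutants for 25 genes, against 23.3% of all genes, and the highest of all 6 animals for 16, against 10.9%. Control replicate 1 was the highest of all 6 for 10 genes, against 13.5% of all genes, control replicate 3 for 5, against 12.3%, and mutant replicate 2 for 1, against 30.4%. Mutant replicate 2 was the lowest of all 6 for 9 genes, against 15.8%. These animals were picked out after their values were seen, so the counts are a description with no test. Set against the average control, the deviation of the set had a median of -0.02, -0.15 and 0.26 in mutant replicates 1, 2 and 3, against 0.20, -0.28 and 0.10 in control replicates 1, 2 and 3. The groups overlapped.

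The size of the animal differences varied between the classes of genes. Control replicate 2 lay below the mean of the other controls by a median of -0.42 on the log2 scale over the set, beside 0.08 over all genes. Among the transcription factors the median was -0.84, and for Oasl2, Rtp4 and Ifit1 the differences were -2.59, -1.71 and -1.52. Mutant replicate 3 lay above the other mutants by a median of 0.34, beside -0.03 over all genes. It stood out most in the IFIT genes, with a median of 1.06, and least in the transcription factors, with 0.00. The median range of a gene over the 6 arrays was 0.79 in the set, beside 0.48 over all genes. The median SD was 0.23 in the mutants and 0.28 in the controls for the set, beside 0.14 and 0.15 over all genes.

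**Figure D3:**
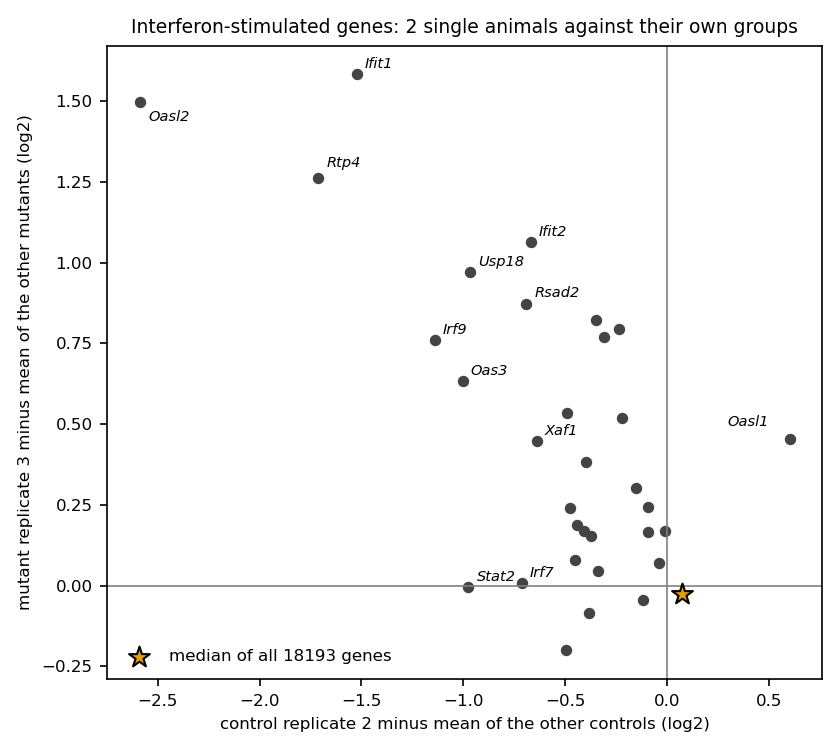
Each interferon-stimulated gene by the log2 signal of control replicate 2 minus the mean of the other controls (horizontal axis) and of mutant replicate 3 minus the mean of the other mutants (vertical axis), with the median of all 18193 genes as a star. Oasl2, Ifit1 and Rtp4 lie farthest to the upper left, and Oasl1 is the only gene to the right of 0.

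The summed signals of plasma cell, macrophage and dendritic cell markers followed the same order of animals among the mutants but not among the controls. Not all lists did so. Among the mutants the smooth muscle, fibroblast and endothelial sums were highest in mutant replicate 1, and the T and NK cell sum in mutant replicate 2. Plasma cell genes had summed linear signals of 3787, 740 and 4383 in mutant replicates 1, 2 and 3, against 6693, 10795 and 9605 in control replicates 1, 2 and 3, and mutant replicate 3 was the highest mutant for 4 of 5 genes and control replicate 2 the highest array for 5 of 5. Macrophage genes summed to 2415, 1227 and 2861 in the mutants, against 2481, 3289 and 2305 in the controls, and mutant replicate 3 was the highest mutant and control replicate 2 the highest array for 6 of 9 genes each. In these sums, as in the median of the interferon-stimulated genes, mutant replicate 3 was the highest mutant and mutant replicate 2 the lowest. By the median deviation from the average control, macrophage and dendritic cell genes kept this order. Plasma cell genes did not, at -1.21, -1.14 and -0.995 in mutant replicates 1, 2 and 3. Of the 5 plasma cell genes, 3 were lowest in mutant replicate 2 and 2 in mutant replicate 1. The T and NK cell markers summed to 488 to 543 in the mutants and to 510 to 591 in the controls, and no marker gene of these lists lay in all arrays at or under the floor of unexpressed genes, taken as the highest Y-linked signal of a control. Control replicate 2, the control with the lowest interferon-stimulated signals, had instead the highest plasma cell, macrophage and dendritic cell sums. It also had the highest sum of the controls for B cell, neutrophil, smooth muscle and fibroblast genes. The part of these cells in the differences between animals was not tested.

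**Figure D4:**
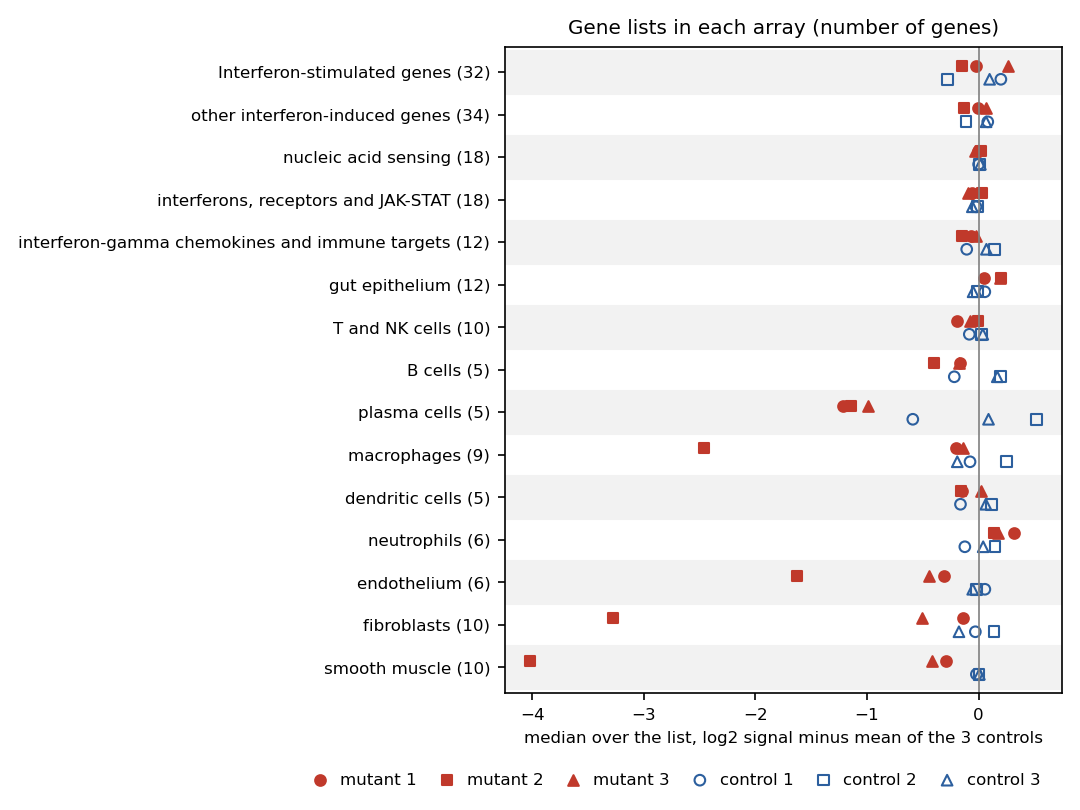
Median of each gene list in each array, as the deviation in log2 signal from the average control (horizontal axis), with mutants filled and above, and controls open and below, in each row. The interferon-stimulated genes run from 0.26 in mutant replicate 3 down to -0.28 in control replicate 2, while smooth muscle stands at -4.02 in mutant replicate 2.

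The upstream part of the pathway also gave no call. Of 18 measured genes of interferons, receptors and JAK-STAT signalling, 0 passed limma at an adjusted p under 0.05, where 0.879% of all genes did. At an unadjusted p under 0.05 there were 0 higher and 2 lower (Ifnar2 and Jak2), where 16.2% of all genes passed in either direction. The median log2 fold change of the list was -0.07. Ifng, which encodes interferon-gamma, was at or under the floor of unexpressed genes in all arrays. Ifnar2, a chain of the type I receptor, was at 7.42, 6.51 and 7.32 in the mutants, against 7.51, 8.03 and 7.63 in the controls (log2 fold change -0.64, limma adjusted p = 0.378). Jak2, a kinase of the interferon-gamma receptor, was lower in every mutant, at 8.49, 8.31 and 8.39, against 9.07, 8.64 and 8.77 in the controls (log2 fold change -0.43, limma adjusted p = 0.262). Socs3, an inhibitor of the kinases, had a log2 fold change of 0.51 with overlapping groups.

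Of 18 measured genes of nucleic acid sensing, 0 passed limma at an adjusted p under 0.05, where 0.879% of all genes did. At an unadjusted p under 0.05, 0 were higher and 3 lower, where 16.2% of all genes passed in either direction. These 3 were lower in every mutant, as were 8.86% of all genes. Ikbke, a kinase that activates the interferon regulatory factors, was at 6.47, 7.19 and 7.09 in the mutants, against 7.71, 7.90 and 7.54 in the controls (log2 fold change -0.80, limma adjusted p = 0.191). Ddx58, the RIG-I sensor, had a log2 fold change of -0.49, and Ticam1, the adaptor TRIF, had -0.31. The median log2 fold change of the list was 0.00.

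Among 34 further interferon-induced genes outside the set, 1 fell in the mutants and 0 rose at an adjusted p under 0.05, where all genes had 0.396% lower and 0.484% higher. Parp12, an ADP-ribosyltransferase with antiviral activity, was at 8.22, 8.03 and 8.39 in the mutants, against 9.44, 9.01 and 9.44 in the controls. The groups were well apart for Parp12 (log2 fold change -1.09, standard error 0.16, limma adjusted p = 0.0481), but the call was lost without any 1 of mutant replicates 1, 2 and 3 and control replicates 1 and 3, with adjusted p between 0.114 and 0.209. At an unadjusted p under 0.05 the list had 3 genes higher (Tor3a, Isg20 and Lgals3bp) and 5 lower (Parp12, Sp100, Slfn5, Ifi47 and Helz2), of which Isg20, Lgals3bp, Ifi47 and Helz2 were named after their values were seen. These were 8 of 34 genes, where 16.2% of all genes passed in either direction, and the median log2 fold change of the list was -0.07. Sp100, a nuclear body protein, was lower in every mutant (log2 fold change -0.97, limma adjusted p = 0.0971), as was Slfn5, a Schlafen family member (-0.77, limma adjusted p = 0.0602). Tor3a, an ATPase of the endoplasmic reticulum, was higher in every mutant (0.88, limma adjusted p = 0.0653). Control replicate 2 was the lowest of the controls for 19 of these 34 genes and mutant replicate 3 the highest of the mutants for 16.

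The chemokines and immune genes that interferon-gamma induces had 0 calls among 12 by limma, where 0.879% of all genes were called, with 1 higher (Ido1, named after its values were seen) and 1 lower (H2-Aa) at an unadjusted p under 0.05, where 16.2% of all genes passed. Ido1, the enzyme that breaks down tryptophan, had a log2 fold change of 1.16 with every mutant above every control. The 3 genes with the largest differences belong to antigen presentation by MHC class II. All were lower in every mutant than in every control, and lowest in mutant replicate 2. Of the 12 genes, 1 was higher in every mutant and 3 lower, against 14.5% and 8.86% of all genes. H2-Aa was at 9.67, 7.22 and 10.22 in the mutants, against 10.54, 11.01 and 11.04 in the controls, with a log2 fold change of -1.83 (limma adjusted p = 0.357). Cd74 and H2-Ab1 had log2 fold changes of -1.52 and -1.35. Most macrophage markers, though not Cd68 and Cd14, were also lowest in mutant replicate 2, and their part in these values was not tested.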

How the data were processed

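RNA from 6 mouse colons, 3 mutant and 3 control, was measured on Affymetrix mouse genome arrays. The authors summarised the arrays together by RMA and deposited log2 values, and these were used as deposited. RMA includes quantile normalization across arrays, so a shift of all genes would not be seen. Of 45101 probe sets, 64 control probe sets were left out, and the other 45037 were tested with limma 3.58.1 in R 4.3.3, mutant minus control, with no covariate and Benjamini-Hochberg adjustment over all of them. The methods name a SAM test, in place of which limma was used. Symbols came from the platform annotation, where 34945 probe sets had 1 symbol, 932 several and 9160 none. The code was tested on simulated data. With 3 mice a group the spread is poorly known, and the smallest two-sided p of an exact permutation test is 0.1.

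The members and gene lists were chosen with earlier results of these data known. Values per array are given for members past the threshold, members whose groups did not overlap and the 12 members with the largest absolute log2 fold change, and in each pathway list for called genes and the 3 with the largest. Alternatives were array weights, a shift to equal medians, quantile normalization, a filter at a mean log2 value of 5, the mean of a gene's probe sets, a trended and robust variance, a replicate block and leaving out each array. Nothing in the labels ties equal replicate numbers to a shared litter or day.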

Additional observations from a re-analysis of the deposited data

How the results depend on the processing

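No interferon-stimulated gene was called under any of the 13 alternatives run, and the smallest adjusted p lay between 0.105 and 0.388. The median log2 fold change of the set stayed between -0.14 (without control replicate 2) and 0.13 (without mutant replicate 2). The groups did not overlap for 5 genes, 5 higher and 0 lower, against 14.5% and 8.86% of all genes. There were 3, all higher, with the mean of each gene's probe sets, and 4 higher and 1 lower after quantile normalization. With 1 array left out the number lay between 5 and 14. Without control replicate 2 it was 5 higher and 9 lower, against 29.7% and 15.7% of all genes. Without mutant replicate 1 it was 6 higher and 3 lower, against 22.6% and 13.7%. The share over all genes was not computed for the other settings. The cause of these changes was not tested, other than that fewer arrays make it easier for groups not to overlap. Of the 82 other interferon pathway genes measured 1 was called, against 5 with array weights, 2 after a shift to equal medians, 2 after quantile normalization, 2 with the mean of probe sets and between 0 and 2 with 1 array left out (2 without control replicate 2, otherwise 0). Calls over all genes moved too, with 160 in all, against 379 with array weights and 25 to 162 with 1 array left out. The log2 fold change of Ifit1 lay between -0.19 and 0.65 with 1 array left out, and that of Rtp4 between -0.24 and 0.70, with both negative without mutant replicate 3 (-0.19 and -0.09) or without control replicate 2 (-0.17 and -0.24).

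Replicate numbers did not pair the arrays, with correlations of the deviations of same-numbered arrays of -0.02, 0.25 and -0.15. With the replicate number as a block, 0 interferon-stimulated genes and 0 other pathway genes were called, Parp12 having an adjusted p of 0.0642, and 42 genes of all were called against 160 without the block. The number of arrays limits the precision.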
